A study of Rattus norvegicus with 6 samples.

Results

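The endothelial identity genes are 10 genes by which the cells lining blood vessels are recognised: Pecam1, Cdh5, Vwf, Nos3, Eng, Esam, Cldn5, Emcn, Erg and Sele. They were chosen by symbol from the 18825 genes listed, and all 10 were found and passed the filter on low counts. Messenger RNA came from full-thickness wounds in the dorsal skin of male Sprague–Dawley rats, made diabetic by a diet rich in fat and sugar and then streptozotocin, a toxin of insulin-producing cells. In 3 libraries the wound had been treated with DST-MNs, microneedles that carry spheroids of dental pulp stem cells, regulated by spermidine and TGF-β3. The other 3 libraries (control) came from untreated wounds of rats made diabetic in the same way. No animal age and no day of collection was given, and no blank microneedle group was used here. The labels call the samples biological replicates, so p-values measure the spread between these 3 samples of a group.

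Endothelial cells form the inner lining of every blood vessel and hold to each other through adherens and tight junctions. Some of their genes are made by nearly all blood endothelium and follow how much vessel a piece of tissue holds, while others are switched on in cells activated by cytokines, when the vessel wall begins to capture leukocytes. In a healing wound new vessels sprout into granulation tissue and are later pruned, and both processes are known to be disturbed in diabetes. Pecam1, Cdh5, Esam, Emcn and Erg served here as general markers of vessel content and Sele as the marker of activation. In bulk tissue, fewer endothelial cells and less RNA per cell cannot be told apart.

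Library totals ran from 12545206 to 13818548 counts. Values per gene below are counts scaled by library size with TMM factors (CPM). Log2 changes are DST-MNs over control, tested with edgeR's quasi-likelihood fit over 14427 genes and adjusted by the Benjamini-Hochberg method. Of these genes, 112 (0.776%) passed an adjusted p of 0.05, which were 95 higher (0.658%) and 17 lower (0.118%) genes. Libraries also differed in tissue content. Values per length of transcript (TPM) of 8 skeletal muscle genes summed to 8281, 9544 and 7594 TPM in the treated wounds 1, 2 and 3, against 9708, 26.6 and 530 TPM in the control wounds 1, 2 and 3. Keratinocyte markers summed to between 290 and 4055 TPM in DST-MNs and between 11.7 and 178 TPM in controls, with 5 of the 6 tested higher in every treated library than in any control, which held for 12.9% of all genes, and Krt15 was at 0 in control 2. Hair follicle and sebaceous markers summed to between 219 and 1040 TPM in DST-MNs and between 4.36 and 14.4 TPM in controls. Of the 6 tested, 5 had a log2 change above 0, and Awat1, Awat2 and Elovl4 among them passed the test as higher. The 1 gene with a change below 0 stood at -1.45. It was lower in every treated library than in any control, which held for 10% of all genes. Control 1 stood apart from its group. By the chi-square per degree of freedom of the counts over genes it was nearer to DST-MNs 2 and 3 (35.7 and 44.0) than to controls 2 and 3 (50.8 and 70.7), and its red cell markers summed to 2000 TPM, against 12880 and 13121 TPM in controls 2 and 3. The part of these differences in the endothelial values was not tested.

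The promoters of 6 of the 10 genes were in the RefSeq table (GRCr8 build), and 4 are shown because their genes carry the contrast described below: Nos3, Eng and Erg had lower counts in every treated library than in any control, and Cldn5 did not. Each line gives the 250 bases before the annotated gene start, 5′ to 3′ on the gene's strand. Capitals mark AGGAAG or its reverse complement CTTCCT, a form of the core bound by ETS factors such as ERG. The windows are chr4:11706582-11706831 (minus strand) for Nos3, chr3:36332029-36332278 (plus strand) for Eng, chr11:48251567-48251816 (minus strand) for Erg and chr11:95718599-95718848 (minus strand) for Cldn5.
Nos3: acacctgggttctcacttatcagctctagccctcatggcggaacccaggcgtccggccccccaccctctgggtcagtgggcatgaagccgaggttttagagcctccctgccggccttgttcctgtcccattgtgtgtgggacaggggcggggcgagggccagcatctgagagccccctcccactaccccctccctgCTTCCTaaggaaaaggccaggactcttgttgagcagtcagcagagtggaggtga
Eng: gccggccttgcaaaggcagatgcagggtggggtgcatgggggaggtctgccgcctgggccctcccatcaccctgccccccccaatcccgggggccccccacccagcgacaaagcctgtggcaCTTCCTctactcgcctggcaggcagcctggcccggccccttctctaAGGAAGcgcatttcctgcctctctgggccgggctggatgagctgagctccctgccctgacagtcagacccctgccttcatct
Erg: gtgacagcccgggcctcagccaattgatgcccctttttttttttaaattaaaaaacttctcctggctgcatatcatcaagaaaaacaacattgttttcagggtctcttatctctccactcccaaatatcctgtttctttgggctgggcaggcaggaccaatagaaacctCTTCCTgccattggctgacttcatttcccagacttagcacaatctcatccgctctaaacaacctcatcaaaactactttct
Cldn5: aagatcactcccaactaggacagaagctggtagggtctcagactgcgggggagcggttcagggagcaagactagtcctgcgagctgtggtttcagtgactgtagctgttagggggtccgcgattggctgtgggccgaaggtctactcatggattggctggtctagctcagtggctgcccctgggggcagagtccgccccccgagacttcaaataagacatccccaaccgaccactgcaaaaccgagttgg
The motif stood 1 time in the Nos3 window, 2 times in the Eng window and 1 time in the Erg window, and 0 times in the Cldn5 window. It was also in the windows of Emcn (2 times) and Sele (1 time). Both of these genes overlapped between the groups, as Cldn5 did. In direction, Emcn (-0.16) and Sele (-0.68) had log2 changes below 0, as Nos3, Eng and Erg had, and Cldn5 had one above 0. No relation of the motif to the changes was tested over these 6 windows. Of 33469 windows of the same length in the table, 29.5% held it at least once, so a match is common and describes the sequence only. Pecam1, Cdh5, Vwf and Esam had no entry.

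By edgeR 0 of the 10 genes passed the test over all genes. In direction, 9 of 10 had a log2 change below 0 and Cldn5 one above 0. Among all genes tested, 49.5% were below 0. The median change of the 10 genes was -0.51 on the log2 scale, against 0.00 over all genes. Per library, the median of the 10 genes in log2 CPM, centred on the 6 libraries, was -0.40, -0.05 and -0.26 in the treated wounds 1, 2 and 3, against 0.10, 0.31 and 0.29 in the control wounds. Control 1 was thus the nearest of its group to the treated wounds, and without it the median change was -0.60. At an unadjusted p below 0.05 there were 5 lower members (Pecam1, Vwf, Nos3, Eng and Erg) and 0 higher, beside 6.88% of all genes lower and 9.80% higher. In CPM the same 5 members were lower in all treated libraries than in any control, which held for 10% of all genes. By the same measure 0 members were higher in all treated libraries, which held for 12.9%. In TPM, Pecam1 and Erg overlapped between the groups. DST-MNs 2 was above control 1 for both, at 166 against 150 TPM of Pecam1 and 22.3 against 20.6 TPM of Erg. DESeq2's Wald test called 3 members lower, Vwf, Nos3 and Eng, where it called 7.10% of all genes, 2.73% lower and 4.36% higher.

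**Figure D1:**
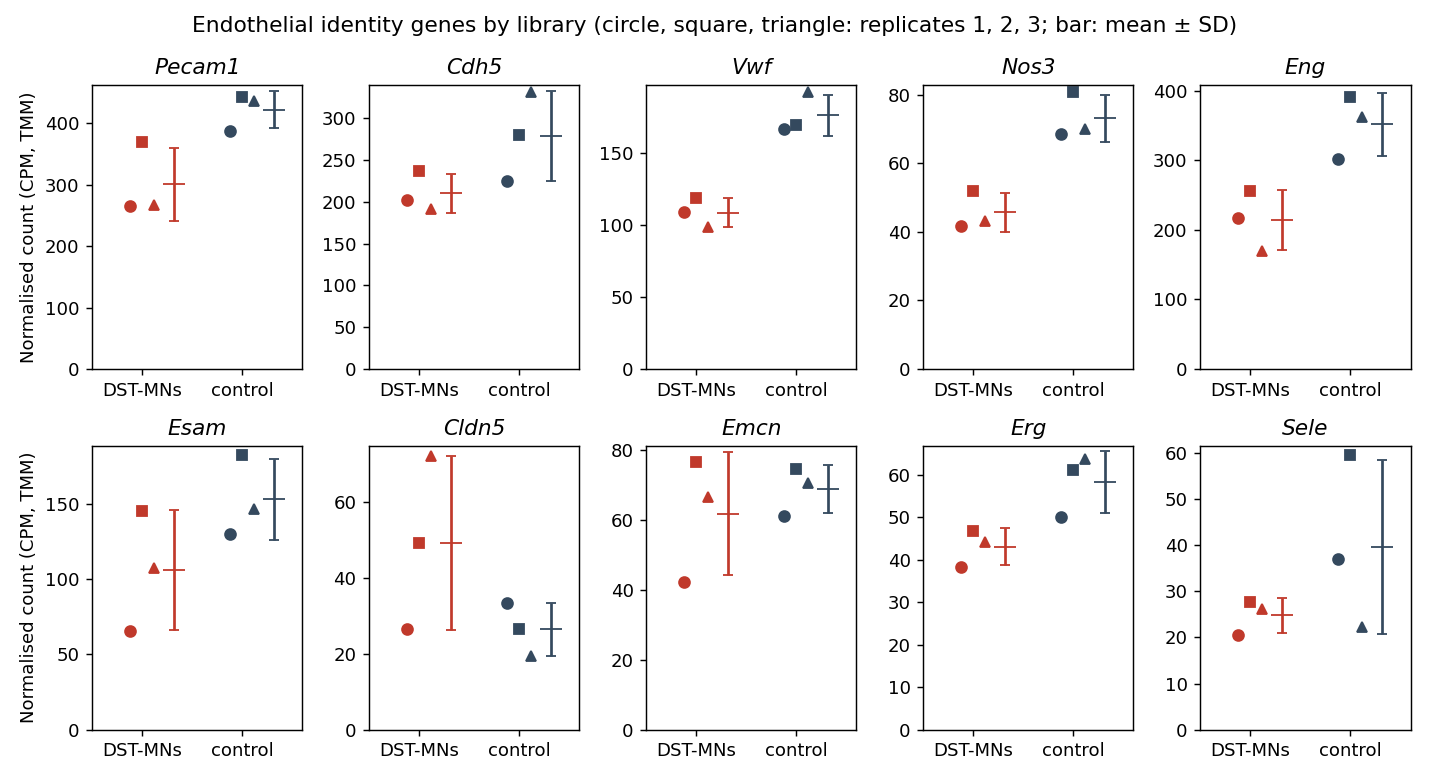
Normalised counts (CPM, vertical axes from 0) of the 10 endothelial identity genes in the 3 DST-MNs libraries (red, left) and the 3 control libraries (dark, right), with mean ± SD beside the points. The groups are apart for Pecam1, Vwf, Nos3, Eng and Erg, and Cldn5 is the gene whose treated mean, 49.2 CPM, lies above its control mean, 26.4 CPM.

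Among the general markers, Pecam1 (gene ID 29583) encodes an adhesion protein at the borders between endothelial cells that platelets and leukocytes also carry. It had 265, 369 and 267 CPM in the treated wounds 1, 2 and 3, against 388, 443 and 436 CPM in the control wounds 1, 2 and 3. In CPM every treated library was below every control, with DST-MNs 2 close to control 1. In TPM, DST-MNs 2 was above control 1. The log2 change was -0.49 (SE 0.17, 95% interval -0.90 to -0.08, adjusted p = 0.233, edgeR). Platelets and leukocytes could also give Pecam1 reads. The 8 leukocyte markers summed to between 1432 and 2069 TPM in DST-MNs and between 1274 and 1759 TPM in controls. Of the 8, 7 had a log2 change above 0, while 49.5% of all genes were below 0. The median of the 8 was 0.08. The defining leukocyte gene Ptprc stood at 0.42 (SE 0.21, adjusted p = 0.369, edgeR). The part of leukocytes and platelets in the Pecam1 values was not tested.

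Cdh5 (307618) encodes VE-cadherin, the cadherin of endothelial adherens junctions. It had 202, 237 and 192 CPM in the treated wounds, against 224, 280 and 332 CPM in controls. The groups overlapped, since DST-MNs 2 was above control 1, and the 3 controls were themselves spread. The change was -0.41 on the log2 scale (SE 0.18, 95% interval -0.83 to 0.01, adjusted p = 0.313, edgeR), and it was -0.27 without control replicate 3.

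Erg (170909), an ETS transcription factor that maintains endothelial identity, had 38.3, 46.8 and 44.1 CPM in DST-MNs wounds, against 50.2, 61.2 and 63.7 CPM in controls. These groups did not overlap in CPM, and DST-MNs 2 and control 1 were again the nearest pair. In TPM, DST-MNs 2 was above control 1. Its log2 change of -0.44 (SE 0.14) had an adjusted p of 0.196 (edgeR). Over the 6 libraries Cdh5 and Erg had the most similar profiles of the 45 pairs of members, with a root-mean-square difference of 0.11 in centred log2 CPM.

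Esam (300519), an immunoglobulin-type adhesion molecule of endothelial tight junctions that platelets also carry, varied more within the treated group. It had 65.3, 145 and 108 CPM in the treated wounds 1, 2 and 3, against 130, 183 and 147 CPM in the control wounds. DST-MNs 1 was lowest of all and DST-MNs 2 lay within the control range. The log2 change of -0.53 (SE 0.29, adjusted p = 0.415, edgeR) became -0.29 without DST-MNs replicate 1, and was -0.82 when replicate 2 was the one left out.

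Emcn (295490) encodes endomucin, a mucin-like protein of capillaries and veins that hinders leukocyte adhesion. It had 42.3, 76.6 and 66.7 CPM in DST-MNs wounds, against 61.3, 74.6 and 70.8 CPM in controls. The highest and the lowest values of all 6 libraries were both in treated wounds. Its log2 change was -0.16 (SE 0.22, 95% interval -0.69 to 0.37, adjusted p = 0.762, edgeR), and it was 0.049 without DST-MNs replicate 1.

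Eng (497010) encodes endoglin, a co-receptor for ligands of the TGF-β family that is made in growing vessels and also by some macrophages and stromal cells. It had 217, 256 and 170 CPM in the treated wounds, against 302, 391 and 363 CPM in controls. All treated libraries lay below all controls, and DST-MNs 3 was the lowest. Its log2 change of -0.71 (SE 0.19, adjusted p = 0.156, edgeR) was the lowest of the 10 members, and DESeq2 called it lower (adjusted p = 0.00589). Of 11 tested partners of endoglin, such as its type I receptor partner Acvrl1 and SMAD proteins, 0 passed the test. At an unadjusted p below 0.05, where 6.88% of all genes were lower, 2 of the 11 were lower. These were the type II receptor Bmpr2, with a log2 change of -0.40 (SE 0.16), and the inhibitory SMAD gene Smad7, with -0.56 (SE 0.23). The inhibitory SMAD gene Smad6 stood at -0.43 (SE 0.22). The median of the 11 was -0.19.

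Vwf (116669) encodes von Willebrand factor, the platelet-binding protein that endothelium stores in Weibel-Palade bodies and that megakaryocytes also make. It had 109, 119 and 98.3 CPM in DST-MNs wounds, against 166, 170 and 193 CPM in controls. The libraries of each group were close together and the groups were well apart. This gave the smallest p of the 10 members, with a log2 change of -0.70 (SE 0.12, 95% interval -0.99 to -0.40, adjusted p = 0.0723, edgeR). With 1 library left out, the change lay between -0.75 and -0.63 and the adjusted p between 0.0585 and 0.249. DESeq2 called Vwf lower (adjusted p = 1.4e-05). Platelet markers were few: of 9 found, 5 passed the count filter and none of them passed the test, with summed TPM of 284 to 419 in DST-MNs and 377 to 412 in controls. Nearly all of that sum was Pf4, at 277 to 411 TPM over the 6 libraries, and the platelet gene Gp9 was at 0 in DST-MNs 2 and in controls 1 and 3.

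Of 11 tested genes of Weibel-Palade bodies and of the handling of Vwf, 0 passed the test. At an unadjusted p below 0.05, where 6.88% of all genes were lower, 3 of the 11 were lower. These were Thbs1, which encodes the matrix protein thrombospondin (-1.93, SE 0.37, adjusted p = 0.0861, edgeR), the tetraspanin gene Cd63 (-0.57, SE 0.13) and Angpt2, the gene of the TIE2 antagonist angiopoietin 2 (-0.65, SE 0.21). Thbs1 and Cd63 are made by many cell types, and DESeq2 called both lower, beside 2.73% of all genes. Without control replicate 1, Thbs1 passed edgeR's test as well (adjusted p = 0.0216). That fit called 402 of 14670 genes, against 112 of 14427 in the main fit. The trafficking genes Rab27a, Rab3d and Stxbp5 had log2 changes between -0.05 and 0.13. The list as a whole had a median of -0.05.

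Nos3 (24600) encodes the endothelial nitric oxide synthase, whose product relaxes vessels. It had 41.7, 52.0 and 43.2 CPM in the treated wounds, against 68.5, 80.8 and 70.0 CPM in controls. As for Vwf, the gap between the groups was wider than the range of either. The log2 change was -0.68 (SE 0.13, 95% interval -0.99 to -0.37, adjusted p = 0.0885, edgeR), between -0.77 and -0.61 with 1 library left out, and DESeq2 called it lower (adjusted p = 0.000634). In the list of its partners and of genes induced by blood flow, 0 of 10 passed, with a median of -0.46. The flow-induced factor Klf4 stood at -0.61 (SE 0.25) and Nostrin, which encodes a trafficking inducer of the synthase, at -0.46 (SE 0.21). Gucy1a1, a subunit of the nitric oxide receptor of smooth muscle, was at 0.57 (SE 0.22, adjusted p = 0.263, edgeR).

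**Figure D2:**
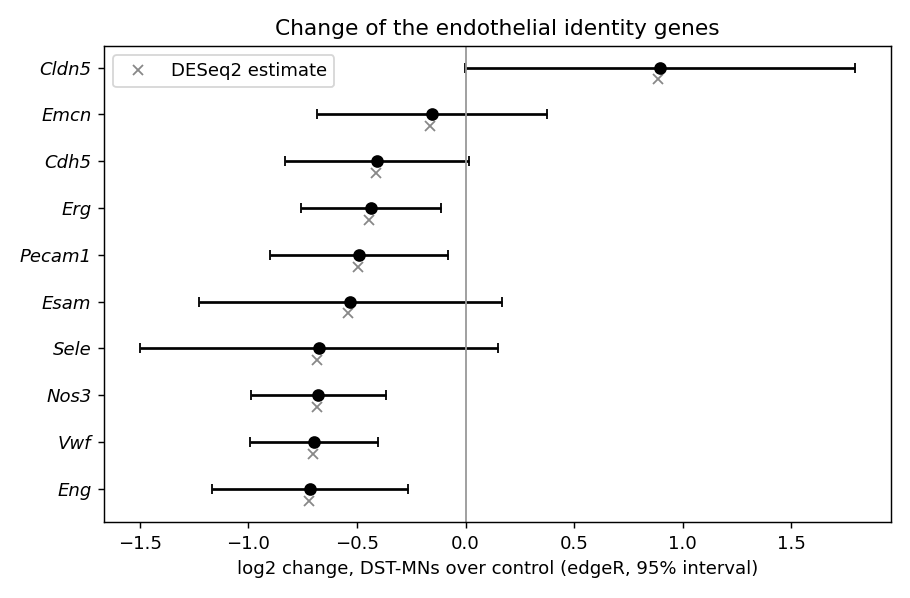
Log2 change of each endothelial identity gene, DST-MNs over control, as fitted by edgeR (black points, bars are 95% intervals) and by DESeq2 (grey crosses). Intervals of Vwf, Nos3, Eng, Erg and Pecam1 lie below 0, those of Cdh5, Esam, Emcn, Sele and Cldn5 include 0, and Cldn5 alone has an estimate above 0.

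Cldn5 (65131), the main claudin of endothelial tight junctions and a barrier gene of vessels, had the only log2 change above 0 among the 10 members. It had 26.4, 49.0 and 72.1 CPM in the treated wounds 1, 2 and 3, against 33.4, 26.6 and 19.4 CPM in the control wounds 1, 2 and 3. DST-MNs 2 and 3 were above every control, and DST-MNs 1 lay within the control range. Its log2 change was 0.89 (SE 0.38, 95% interval -0.00 to 1.79, adjusted p = 0.301, edgeR), and leaving out DST-MNs replicate 3 gave 0.51, leaving out replicate 1 gave 1.19. The lowest control values, in controls 2 and 3, were in the libraries with the least skeletal muscle RNA. DST-MNs 1, with 8281 TPM of that RNA, was near control 1, with 9708 TPM of it, in Cldn5 (33.6 and 34.9 TPM). Both were above controls 2 and 3 (28.5 and 21.8 TPM of Cldn5). The part of muscle in the Cldn5 values was not tested.

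The partners of Cldn5, Cdh5 and Esam at cell junctions had a median log2 change of -0.07 over 12 tested genes, 0 of which passed. Jup (plakoglobin, 1.08, SE 0.35, adjusted p = 0.209, edgeR) and Ocln (occludin, 1.58, SE 0.52, adjusted p = 0.212) were the members higher at an unadjusted p below 0.05, and DESeq2 called both higher. Over all genes, 9.80% were higher at that p and DESeq2 called 4.36% higher. With DST-MNs replicate 1 left out, Jup was at 0.55 and Ocln at 1.04. Each was highest in DST-MNs 1, the library with the most keratinocyte RNA, whereas Cldn5 was lowest there among treated wounds. Epithelia make both genes, and the part of keratinocytes in them was not tested. Tjp1, the scaffold gene ZO-1, stood at -0.29 (SE 0.15).

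Sele (25544) encodes E-selectin, which endothelium makes upon stimulation by cytokines and which slows leukocytes on the vessel wall. It had 20.6, 27.7 and 26.2 CPM in DST-MNs wounds, against 37.0, 59.6 and 22.2 CPM in controls. The treated libraries were close together and the controls were not, control 2 being the highest and control 3 within the treated range. Its log2 change was -0.68 (SE 0.35, 95% interval -1.50 to 0.15, adjusted p = 0.381, edgeR). That value rested on single controls, at -0.26 without control replicate 2 and -0.97 without control replicate 3.

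Other adhesion genes that activated endothelium makes differed in direction. Of 6 listed, 5 passed the count filter and 0 the test, and their median was -0.03. Selp, P-selectin, which is stored with Vwf, had 23.6, 58.9 and 19.2 CPM in DST-MNs wounds, against 85.3, 78.6 and 41.3 CPM in controls (log2 change -1.01, SE 0.47, adjusted p = 0.345, edgeR). DST-MNs 2 reached into the control range, and without it the change was -1.66. Vcam1, which binds leukocyte integrins, was at -0.51 (SE 0.25, adjusted p = 0.361, edgeR), or -0.80 without DST-MNs replicate 2. Icam1, an integrin ligand of many cell types, was at 0.00 (SE 0.20, 95% interval -0.47 to 0.47). Cx3cl1, the membrane-bound chemokine fractalkine, was at 0.77 (SE 0.31, adjusted p = 0.283, edgeR) and higher in every treated library than in any control, at 2.80 to 6.75 CPM over all 6 libraries. Genes of NF-kB feedback, which report cytokine signalling in any cell, had a median of -0.21 over 7, and 0 of 7 passed. Nfkbia was at -0.49 (SE 0.20), Birc3 at -0.36 (SE 0.33) and Tnip1 at -0.21 (SE 0.17). With 1 library left out Birc3 ran from -0.76 to -0.20 and Tnip1 from -0.33 to -0.09.

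On the leukocyte side, 0 of 8 genes that make or carry selectin ligands passed, with a median of -0.22. The sialyltransferase gene St3gal4 (-0.45, SE 0.15) and Podxl (-0.39, SE 0.16), which encodes a sialomucin that endothelium also makes, were lower at an unadjusted p below 0.05. Over all genes, 6.88% were lower at that p. Cd24 stood at 1.00 (SE 0.51), or 0.17 without DST-MNs replicate 1.

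To set activation and subtype against vessel content, each gene was divided by Pecam1 within its library, which removes the scaling of libraries. TPM, which allows for gene length, was used. Sele amounted to 7.34%, 7.33% and 9.29% of Pecam1 in the treated wounds 1, 2 and 3, against 9.32%, 13.2% and 4.98% in the control wounds 1, 2 and 3. The treated values lay inside the control range. The difference of the log2 ratio was -0.09 (means -3.64 ± 0.20 in DST-MNs and -3.55 ± 0.71 in control, SD, n = 3 each), with p = 0.9 in a two-sided exact permutation test. With 3 libraries against 3, that test cannot go below 0.1. Without control replicate 2 the difference was 0.22. When Pecam1 counts set the library scaling in edgeR, a fit added after seeing the data, Sele had a log2 change of -0.17 with a 95% interval of -0.93 to 0.59.

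Cldn5 was the exception among the 9 ratios. It amounted to 27.1%, 36.2% and 72.4% of Pecam1 in the treated wounds 1, 2 and 3, against 23.3%, 16.2% and 11.9% in the control wounds 1, 2 and 3. Every treated wound was above every control, with DST-MNs 1 and control 1 near each other. Control 1, the control with the most skeletal muscle RNA, had the highest ratio of its group. Controls 2 and 3, with little of that RNA, were the lowest of all libraries. The part of muscle in this ratio was not tested. The log2 ratio differed by 1.32 (means -1.27 ± 0.73 in DST-MNs and -2.60 ± 0.49 in control, SD, n = 3 each; exact permutation p = 0.1, the smallest possible, and 0.45 adjusted over the 9 ratios). Leaving out DST-MNs replicate 3 gave 0.92, and leaving out replicate 1 gave 1.63. With Pecam1 counts as the scaling, edgeR gave a log2 change of 1.40 (95% interval 0.50 to 2.30, adjusted p = 0.0673), in a fit that called 0 members. It called 3.80% of all genes, 3.70% higher and 0.0970% lower, and its median over all genes was 0.52.

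The remaining ratios overlapped between the groups. Differences of the log2 ratio were -0.22 for Eng, -0.19 for Vwf, -0.17 for Nos3, -0.08 for Esam, 0.10 for Erg, 0.11 for Cdh5 and 0.32 for Emcn. Their exact permutation p-values ran from 0.2 to 0.8. Vwf, for example, amounted to 15.0%, 11.6% and 13.3% of Pecam1 in DST-MNs wounds, against 15.6%, 13.9% and 15.9% in controls. The 95% intervals of these 7 changes in the Pecam1-scaled fit all included 0, and for Vwf the interval ran from -0.60 to 0.22.

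**Figure D3:**
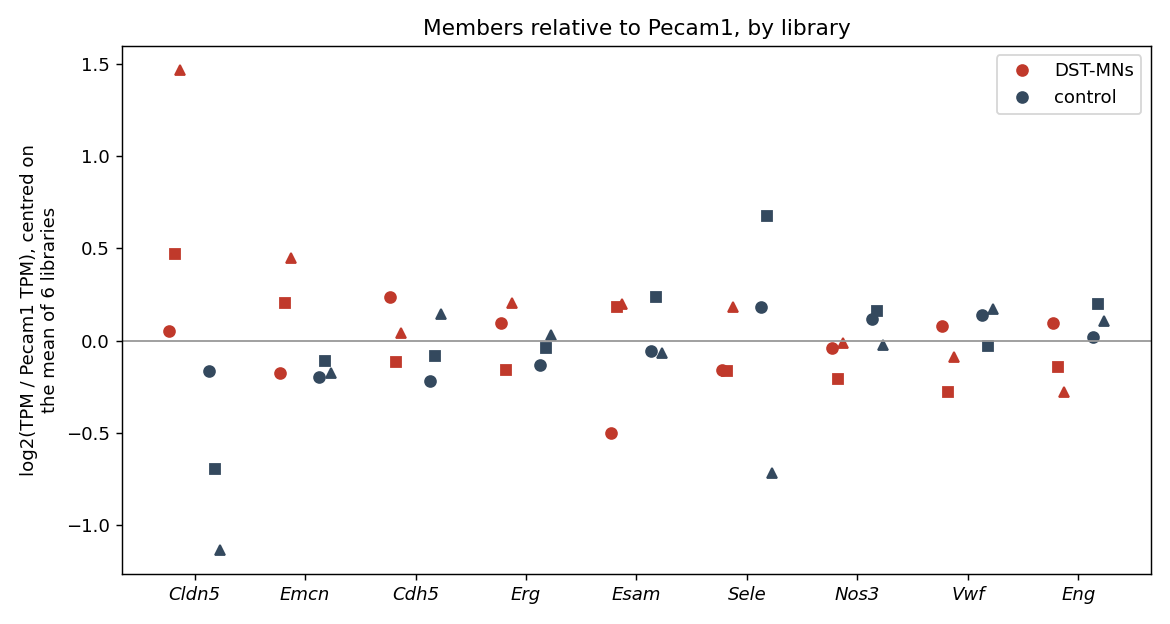
Log2 ratio of each gene's TPM to that of Pecam1 in each library, centred on the mean of the 6 libraries, with DST-MNs in red (left of each pair) and control dark (right). Circles, squares and triangles are replicates 1, 2 and 3. Cldn5 is separated by group with a difference of 1.32, while Sele has its widest spread among the controls.

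The order of the levels was much alike in both groups. By mean TPM in the treated wounds, Pecam1 (133 ± 28.6) came before Eng (114 ± 27.5), Esam (94.8 ± 35.6), Cdh5 (81.1 ± 12.3), Emcn (76.2 ± 20.5) and Cldn5 (57.9 ± 23.3), and then Erg (20.5 ± 1.61), Vwf (17.5 ± 2.45), Nos3 (17.1 ± 2.36) and Sele (10.5 ± 1.52; SD, n = 3 each). Neighbours in this order overlapped over their 3 libraries, except that Cldn5 was clear of Erg and Nos3 of Sele. In controls the order was Pecam1 (170 ± 17.7), Eng (167 ± 25.2), Esam (124 ± 22.7), Cdh5 (97.7 ± 21.9), Emcn (76.9 ± 9.40), Cldn5 (28.4 ± 6.56), Vwf (25.6 ± 3.12), Erg (24.9 ± 3.91), Nos3 (24.7 ± 2.41) and Sele (15.4 ± 7.16; SD, n = 3 each). There the gap lay between Emcn and Cldn5, and all other neighbours overlapped. Cldn5 was in the same place of the order in both groups, and DST-MNs 1 had 33.6 TPM of it, against 34.9 TPM in control 1.

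Beyond the 10 members, 24 further genes of blood endothelium had a median log2 change of -0.30. All 24 were tested, 21 of them had a change below 0, 8 were lower in all treated libraries than in any control, and 0 passed the test. Over all genes, 49.5% had a change below 0 and 10% were lower in all treated libraries. Ecscr, a gene of endothelial migration, had 21.3, 27.7 and 17.4 CPM in DST-MNs wounds, against 40.6, 41.2 and 49.3 CPM in controls (log2 change -0.98, SE 0.19, adjusted p = 0.0939, edgeR). These groups were well apart. Myct1 was at -0.81 (SE 0.19) and Apold1, an early response gene of endothelium, at -1.62 (SE 0.41, or -1.14 without control replicate 2). DESeq2 called 4 of the 24 lower, namely Ecscr, Adgrl4, Myct1 and Apold1, beside 2.73% of all genes. Apold1 passed edgeR's test without control replicate 1 (adjusted p = 0.0443), in a fit that called 402 of 14670 genes. It did not pass with any other library left out. The VEGF receptor gene Kdr stood at -0.27 (SE 0.20, adjusted p = 0.538, edgeR), or between -0.38 without control replicate 1 and -0.055 without control replicate 2.

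Sprouting genes had a lower median, -0.72 over 11 genes, of which 10 were below 0, 7 were lower at an unadjusted p below 0.05 and 0 passed the test over all genes. Over all genes 49.5% were below 0 and 6.88% were lower at that p. Esm1, a marker of tip cells, had 2.68, 4.04 and 6.36 CPM in DST-MNs wounds, against 11.1, 14.4 and 17.5 CPM in controls (log2 change -1.71, SE 0.36, adjusted p = 0.108, edgeR). All treated values were below all controls. Apln, a peptide of sprouting endothelium, was at -1.85 (SE 0.49) and the basement membrane laminin Lama4 at -0.79 (SE 0.20). DESeq2 called Esm1, Apln, Lama4, Col4a1 and Col4a2 lower, beside 2.73% of all genes. Without control replicate 1, Apln and Lama4 passed edgeR's test (adjusted p = 0.0424 and 0.0491), in a fit that called 402 of 14670 genes. Neither passed with any other library left out. Laminin and collagen IV chains are made by mural cells and fibroblasts too.

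Transcription factors that share Erg's role had a median of -0.04 over 10 tested genes, and 0 passed. The ETS genes Ets1 (-0.51, SE 0.18), Elk3 (-0.30, SE 0.15) and Fli1 (-0.27, SE 0.13) had the smallest p. Arterial and venous genes had a median of -0.12 over 9, again with 0 past the threshold, and Flrt2 (-0.51, SE 0.17), Bmx (-0.75, SE 0.52) and the connexin Gja4 (-0.39, SE 0.32) had the smallest p. With 1 library left out Bmx ran from -1.33 to -0.45 and Gja4 from -0.61 to -0.12.

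**Figure D4:**
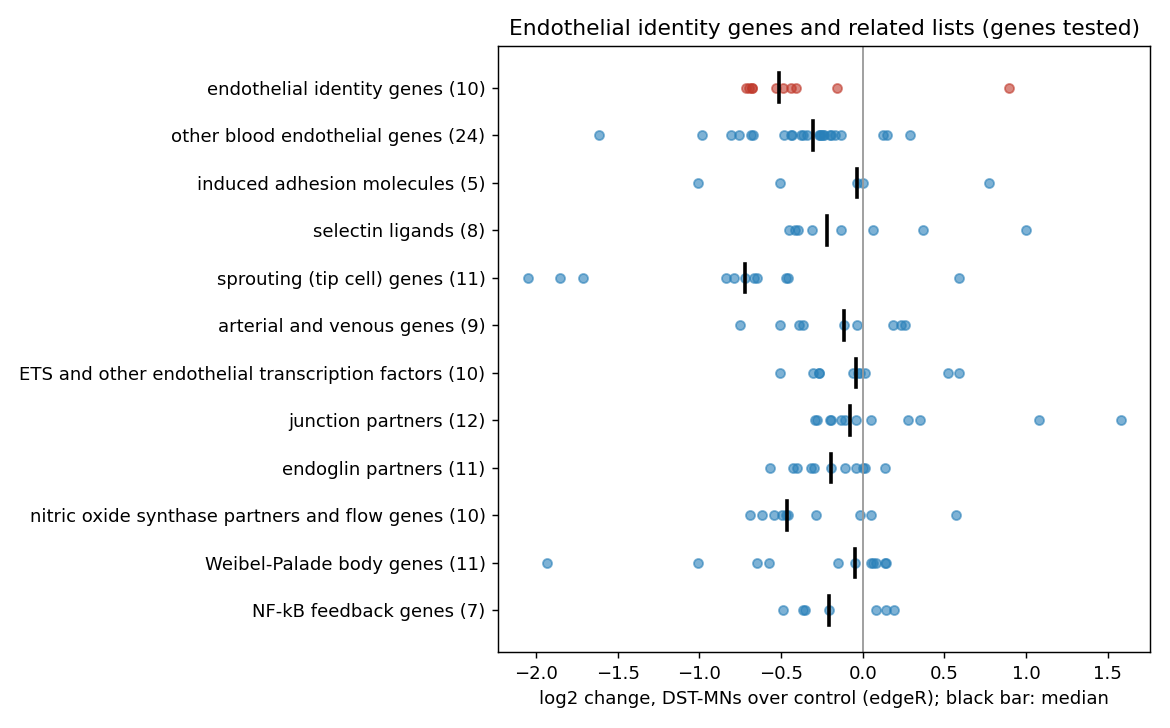
Log2 change (DST-MNs over control, edgeR) of every tested gene of the endothelial identity genes (red) and of 11 related lists (blue), with the number tested in brackets and the median as a black bar. The medians are -0.51 for the identity genes and -0.72 for the sprouting genes, while induced adhesion molecules and junction partners have medians of -0.03 and -0.07.

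Neighbouring cell types of the vessel wall and its surroundings were compared by their markers. Mural cell markers summed to between 515 and 750 TPM in DST-MNs and between 475 and 702 TPM in controls. Their median log2 change was -0.06 over 11 genes, with the pericyte gene Rgs5 at 0.25 (SE 0.30), Cspg4 at -0.42 (SE 0.21) and Ndufa4l2 at -0.56 (SE 0.35). With 1 library left out, Rgs5 ran from 0.06 to 0.53, Cspg4 from -0.63 to -0.24 and Ndufa4l2 from -0.88 to -0.36, with each end set by leaving out control replicate 1 or 3. Mcam, which endothelium makes as well, was at -0.73 (SE 0.20), and DESeq2 called it lower. Of lymphatic endothelium, the defining factor Prox1 had 14, 4 and 6 counts in the treated wounds 1, 2 and 3, against 4, 1 and 0 counts in the control wounds 1, 2 and 3, and did not pass the filter. The other 6 lymphatic markers were tested, with a median of 0.24, and 3 were below 0 and 3 above. Among them Pdpn, which fibroblasts also make, was at -0.80 (SE 0.14, adjusted p = 0.0732, edgeR), Lyve1 at -1.53 (SE 0.53, or -0.84 without control replicate 3) and Mmrn1 at 2.22 (SE 0.78, or 3.33 without control replicate 1). Fibroblast markers had a median of -0.23 over 7 genes, with Pdgfra at -0.77 (SE 0.14, adjusted p = 0.0723, edgeR). Lower values in treated wounds were thus also found for some genes of stromal cells, and how far the endothelial values share a source with them was not tested.

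Across all 6 libraries, the 5 genes nearest to Cdh5 among 13243 compared were Tmem184b, Pgm2l1, Mgat2, Sec22b and Tmed7. Their root-mean-square difference from it in centred log2 CPM was 0.05 to 0.06. For Sele the nearest were Tafa5, Btg2, Fbxo27, Ctla4 and Csrnp1, at 0.17 to 0.21. None of the other 9 members was among the 5 nearest to Cdh5 or Sele.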

How the data were processed

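RNA was extracted with TRIzol and sequenced as paired-end messenger RNA libraries on a DNBSEQ-T7, per the labels' protocols. Columns were matched to samples by library name and groups were taken from the sample titles. The authors' estimated counts per gene were taken as unscaled, since the column headers list normalised counts separately. The TPM values deposited by the authors, when added up, came to 1000000 per library within rounding. The FPKM values, per the file headers, and the normalised counts, a signal the authors made by scaling counts with 1 factor per library, were not used. The build was mRatBN7.2, per the submitters' processing notes. The name of the aligner, like that of the counter, was not given in the sources used here.

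Counts were rounded to whole numbers and filtered with filterByExpr (minimum count 10). Testing used edgeR 4.0.16 in R 4.3.3 with TMM factors, the quasi-likelihood test and Benjamini-Hochberg adjustment, with a threshold of 0.05. The SE is the size of the log2 change divided by the square root of F. Alternatives used DESeq2 1.42.0 and limma 3.58.1, other scalings and filters, the replicate block and each library left out in turn. Ratios to Pecam1 used TPM with a pseudocount of 0.1. The fits were tested on simulated data. Members and lists were chosen with earlier results of these data known. The rule for named genes took the 10 members, genes past the threshold and up to 3 with the smallest p from a list, Selp, Icam1, Vcam1, Kdr, Ptprc, Prox1 and Rgs5, and the 5 nearest genes of Cdh5 and Sele. Further names in the text were chosen after their values were seen. Of 204 list entries, 202 were matched. Sequences are from RefSeq (GRCr8).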

Additional observations from a re-analysis of the deposited data

How the results depend on the processing

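The number of genes past the threshold was 112. It was 38 with at least 10 counts in every library and 1018 with DESeq2. With 1 library left out it ran from 14 to 402, the highest without control replicate 1 and the lowest without DST-MNs replicate 3. It was 123 with the replicate number as a block, a check in which same-numbered libraries shared little (correlations of deviations -0.02, 0.10 and 0.11 for numbers 1, 2 and 3), and DST-MNs 1 correlated best with control 3 (0.10). The number of endothelial identity genes past the threshold was 0 under every alternative run except DESeq2, which called 3. Sele relative to Pecam1 ran from -0.48 to 0.22 with 1 library left out and was above 0 without control replicate 2. With the replicate block it was -0.09, which the pairing leaves as it is by construction. It was -0.20 over Cdh5 and -0.31 over the geometric mean of 7 members. The 7 were Pecam1, Cdh5, Esam, Cldn5, Emcn, Erg and Eng. The mean thus included Cldn5, whose log2 ratio to Pecam1 differed by 1.32, and also Cdh5 and Erg themselves. A higher Cldn5 in treated wounds raises that mean and lowers every ratio to it. Library scaling by total counts moved the median of all genes to 0.12 and that of the 10 members to -0.40, and limma on log2(TPM + 1) moved them to 0.12 and -0.39. The log2 change of Emcn ran from -0.33 to 0.049 with 1 library left out, above 0 without DST-MNs replicate 1. The log2 change of Icam1 turned to -0.0026 with both uses of DESeq2 (as size factors and as a test), -0.0102 with no count filter, -0.19 without control replicate 3 and -0.053 when DST-MNs replicate 1 was left out. The ratio of Cdh5 to the geometric mean differed by -0.12, that of Erg by -0.13, that of Erg to Cdh5 by -0.011, and that of Esam to Pecam1 by 0.15 without DST-MNs replicate 1 and 0.020 without control replicate 2. Beyond the part of Cldn5 in the geometric mean, the cause was not tested. All other results on the 10 members kept their direction under the alternatives run.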
